A study of Mus musculus with 2 samples.

Results

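Zc3h12a, Zc3h12d, Rc3h1, Rc3h2, Cnot1, Cnot2, Cnot3, Cnot4, Cnot6 and Cnot6l encode proteins that find messenger RNAs and have them destroyed. The genes were compared here at a single time, 4 h, with and without activation of helper T cells. These 10 genes were chosen by name, as Regnase and Roquin genes together with subunits of the CCR4-NOT deadenylase, out of 9652 genes to which splice junctions could be assigned. CD4+ T cells were enriched from the spleens of male C57BL/6JJcl mice, with cells of 4 animals pooled. They were held for 4 h on plates coated with antibodies to CD3e and CD28 at 2 ug/ml each, which engage the T cell receptor complex and a costimulatory receptor, or were held the same way without antibody (the mock group). Each group gave 1 library from total RNA. There is no replicate check and no p-value, and every difference below is a difference between these 2 libraries.

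Regnase-1, the product of Zc3h12a, is an endoribonuclease that cuts stem-loops in messenger RNAs of cytokines and immune regulators. Zc3h12d encodes a related lymphocyte protein. The Roquin proteins, from Rc3h1 and Rc3h2, bind similar stem-loops and bring in the CCR4-NOT complex, which shortens the poly(A) tail and so starts decay. In that complex Cnot1 is the scaffold, Cnot2 and Cnot3 form its NOT module, Cnot6 and Cnot6l are alternative catalytic subunits, and Cnot4 is a ubiquitin ligase that is more loosely tied to it. T cell receptor signals are known to make the protease MALT1 cut the Regnase-1 and Roquin proteins, a step that counts of RNA do not see.

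The deposited values are numbers of reads that span a splice junction. They sum to 1147232 for the mock library and to 1341197 for the stimulated one. A gene's level is the sum of its junction reads per 1000000 junction reads of the library. A gene was called higher or lower when the libraries differed by 2-fold or more, the exact 95% interval of the ratio (Clopper-Pearson) excluded 1, and the gene had 20 or more reads in all. Such intervals hold the counting error alone, since amplified reads can come from 1 molecule. Of 7129 genes with enough reads, 17.0% were called higher in the stimulated library and 25.2% lower. The median log2 ratio over them was −0.21, and the trimmed mean of M values, another scaling, put the point of no change at −0.25. In whole-population RNA, fewer cells of a type and less RNA per cell cannot be told apart. All 6 listed T cell markers were detected, with a median log2 ratio of −0.75. Cd4 went from 650 to 285 reads, Cd3e, Cd3g, Cd3d and Cd28 had ratios of 0.579, 0.532, 0.906 and 0.608, and Lck alone was above 1, at 1.31. The 6 B cell markers summed to 166 mock and 142 stimulated reads. The 5 myeloid and dendritic markers with junctions summed to 40 and 20, and the 3 markers of CD8 T and NK cells with junctions to 56 and 26. Among the myeloid and dendritic markers Lyz2 went from 15 reads to 0 and Flt3 from 8 to 0. The 2 erythroid markers with junctions summed to 5 and 23. Their part in the results was not tested.

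All 10 genes passed the minimum of reads. Zc3h12a was called higher, none was called lower, and 9 met neither condition, beside backgrounds of 17.0% and 25.2%. A count of 1 in 10 is near the background and does not set these genes apart. The median log2 ratio of the 10 genes was −0.15. For 2 of them the interval lay above 1 (26.9% of measured genes) and for 4 it lay below 1 (38.2%). The genes Zc3h12a and Cnot6 marked the ends of the range, with log2 ratios of 1.13 and −0.90, at percentiles 84.3 and 28.6 of all measured genes.

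**Figure D1:**
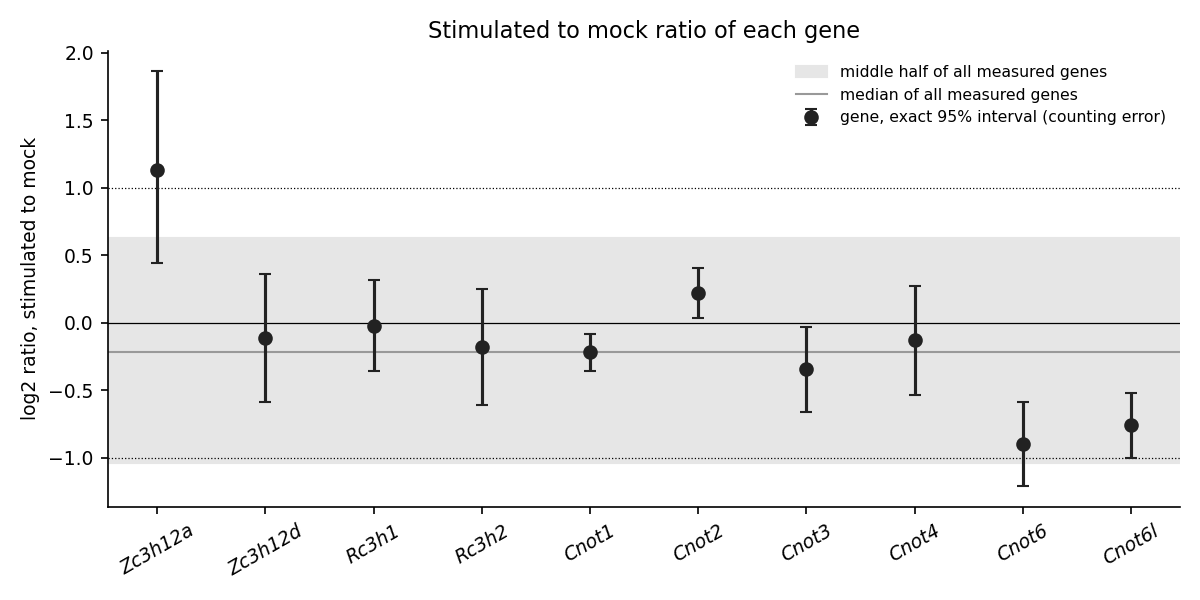
Log2 ratio of the stimulated to the mock library for each of the 10 genes (points) with exact 95% intervals for counting error, 1 library per group. The grey band runs from the lower to the upper quartile of all measured genes, the grey line is their median, and dotted lines mark a 2-fold difference; Zc3h12a alone stands above the upper dotted line.

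Zc3h12a, which lies on the minus strand with junctions over chr4:124797389-124805010 (mm9), had few reads in the mock library. It went from 25 to 64 reads, or from 21.8 to 47.7 per 1000000 junction reads, a ratio of 2.19 (1.36 to 3.63). All 5 introns of its annotated transcript were found, but not in both libraries. The reads join coding exons as follows, from intron 3, 4 and 5 in turn, shown because these junctions carry most of the gene's count. The last 20 bases of the upstream exon are in lower case and the first 20 of the downstream exon in capitals, as in the GENCODE transcript.
Zc3h12a intron 3: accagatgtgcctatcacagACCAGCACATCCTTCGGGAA
Zc3h12a intron 4: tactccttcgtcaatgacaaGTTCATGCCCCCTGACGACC
Zc3h12a intron 5: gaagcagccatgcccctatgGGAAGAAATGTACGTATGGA

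Intron 4 held the most Zc3h12a reads, 15 in the mock and 35 in the stimulated library, a ratio of 2.00 (1.06 to 3.93). Intron 5 had 8 and 10 reads, a ratio of 1.07 (0.380 to 3.12). Intron 3 went from 0 to 10 reads and intron 1, in the 5′ untranslated region, from 0 to 9, while intron 2 had 2 mock reads and no stimulated read. The difference was therefore uneven along the gene. Counting only junctions seen in both libraries left a ratio of 1.67 (0.991 to 2.90), and counting intron 4 alone left 1.996, so the call for Zc3h12a was lost under both. With the interval widened by the spread between junctions pooled over 4848 genes (2.01 times the counting variance) the call held, at 1.11 to 4.62. The spread of Zc3h12a itself was larger, 3.06 times the counting variance from 3 junctions. Whether the call holds with that wider spread was not tested.

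Zc3h12d, on the plus strand at chr10:7552361-7587061, had 75 mock and 81 stimulated reads, a ratio of 0.924 (0.666 to 1.28). Its 4 coding junctions, introns 2 to 5, had 10, 17, 29 and 19 mock reads and 6, 24, 32 and 17 stimulated reads. These counts gave no common direction. The ratio of Zc3h12a exceeded that of Zc3h12d by 2.37 times (1.31 to 4.34, exact conditional interval). That difference was 2.11 times, with an interval of 0.901 to 5.04, when the most-read junction of each gene was used alone. The coding sequences of the 2 genes were identical at 68.5% of 1511 aligned bases, with no identical run longer than 15 bases. The third relative, Zc3h12c, had 2 mock reads and 1 stimulated read, and Zc3h12b had no named junction.

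A junction of Zc3h12d that the annotation does not hold, chr10:7552361-7572985, joined exon 1 to exon 3 in 5 stimulated reads and 0 mock reads. It leaves out exon 2, which holds the annotated start codon. The annotated junctions on either side of exon 2 had 0 and 2 reads (intron 1) and 10 and 6 reads (intron 2) in the mock and stimulated libraries.

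Summed over all their junctions, the Roquin genes had ratios whose intervals included 1. Rc3h1 (plus strand, chr1:162836831-162897777) had 139 mock and 160 stimulated reads, a ratio of 0.985 (0.780 to 1.24). All 19 introns of its transcript were found. The best covered, intron 11, had 37 reads in each library, and intron 12 had 19 and 23. Of the 19 junctions 11 had more reads per 1000000 in the stimulated library and 8 had fewer. Intron 10 had 0 mock and 8 stimulated reads. Rc3h2 (minus strand, chr2:37230949-37278286) had 92 and 95 reads, a ratio of 0.883 (0.656 to 1.19). Of the 19 introns of its transcript 18 were found, and intron 3 was not. Its intron 13 had 22 and 18 reads and its intron 10 had 17 and 18, while intron 6 had 0 and 10. The parts of Rc3h2 had ratios on either side of 1. Their intervals overlap, which does not show that the parts were alike, and no interval of their difference was computed. Introns 1 to 9 had 21 and 39 reads, a ratio of 1.59 (0.912 to 2.84), and introns 10 to 19 had 68 and 54, a ratio of 0.679 (0.466 to 0.985). In the first part introns 1, 5 and 6 had 0 mock reads and 4, 4 and 10 stimulated reads, and intron 9 had 3 mock reads and 0 stimulated reads. The ratio of Rc3h1 over that of Rc3h2 was 1.11 (0.760 to 1.63), an interval that includes no difference and does not show that the genes acted alike.

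The scaffold gene Cnot1 (minus strand, chr8:98251585-98331232) was the most read of the 10 in total, with 886 mock and 890 stimulated reads over 47 junctions. Its ratio was 0.859 (0.782 to 0.944). Under the trimmed mean of M values it was 1.02 (0.928 to 1.12), and its percentile among all measured genes was 49.9. Of its 47 junctions 18 had more reads per 1000000 in the stimulated library and 29 had fewer. Single junctions ran from 1 to 63 mock reads and from 0 to 82 stimulated reads, and 2 introns tied as the most read. Intron 17 had 42 and 82 reads, a ratio of 1.67 (1.14 to 2.48), and intron 4 had 63 and 61, a ratio of 0.828 (0.573 to 1.20). A junction 2 bases away from that of intron 3 and of the same length, 550 bp, was seen in 7 stimulated reads and no mock read, and is not in the gene's sum.

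Of the NOT module, Cnot2 had the larger count in the stimulated library. Cnot2 (minus strand, chr10:115923343-116018508) went from 431 to 587 reads, a ratio of 1.16 (1.03 to 1.32), and 1.38 (1.22 to 1.57) under the trimmed mean of M values. The ratio was higher in the 5′ part of the gene than in the 3′ part. Introns 1 to 7 together had 170 and 292 reads, a ratio of 1.47 (1.21 to 1.79), and introns 8 to 15 had 253 and 281, a ratio of 0.950 (0.799 to 1.13). The introns of the 3′ part went both ways, intron 10 from 45 to 22 reads and intron 13 from 45 to 80. Over 4037 genes with at least 10 reads in each part and library, the ratio of the 5′ part exceeded that of the 3′ part by a median of 0.07 on the log2 scale (quartiles −0.31 and 0.45). There the parts came from all named junctions of a gene in order, alternative ones included, and not from the introns of 1 transcript as for Cnot2. With the interval widened by the spread between junctions Cnot2 stood at 0.973 to 1.40. Cnot3 (plus strand, chr7:3597187-3610210) had 178 and 164 reads, a ratio of 0.788 (0.634 to 0.980), and 0.935 (0.751 to 1.16) under the trimmed mean. Only 11 of the 17 introns of its transcript were found. Cnot4 (minus strand, chr6:34973433-35083501) had 102 and 109 reads, a ratio of 0.914 (0.691 to 1.21), with intron 3 at 16 and 7 reads and intron 8 at 16 and 30. A junction of Cnot4 of 55323 bp that leaves out exon 2, which holds the annotated start codon, had 3 mock reads and no stimulated read.

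The catalytic subunit genes Cnot6 and Cnot6l had the lowest ratios of the 10, and neither reached the 2-fold limit. Cnot6 (minus strand, chr11:49488908-49525855) had 226 mock and 142 stimulated reads, or 197 and 106 per 1000000, a ratio of 0.537 (0.433 to 0.666). Each of its 12 junctions had a ratio below 1. Cnot6l (minus strand, chr5:96506412-96590955) had 359 and 248 reads, or 313 and 185 per 1000000, a ratio of 0.591 (0.501 to 0.697). Of its 14 junctions 12 had a ratio below 1, with intron 9 going from 60 to 30 reads and intron 8 from 31 to 15. Intron 6 stood at 24 and 36. The ratio of Cnot6 over that of Cnot6l was 0.910 (0.691 to 1.20). The 5′ and 3′ parts of both genes, split at the middle intron, gave like values, 0.555 and 0.563 for Cnot6 and 0.594 and 0.597 for Cnot6l. For Cnot6 the likeness depends on intron 2, which gave the 5′ part 17 of its 91 mock reads and none of its 59 stimulated reads. The ratio of that part without intron 2 was not computed. The ratios of the whole genes lay between the quartiles of all measured genes, at percentiles 28.6 and 32.4. Under the trimmed mean of M values the intervals of both genes stayed below 1, and those of Cnot1 and Cnot3 did not.

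**Figure D2:**
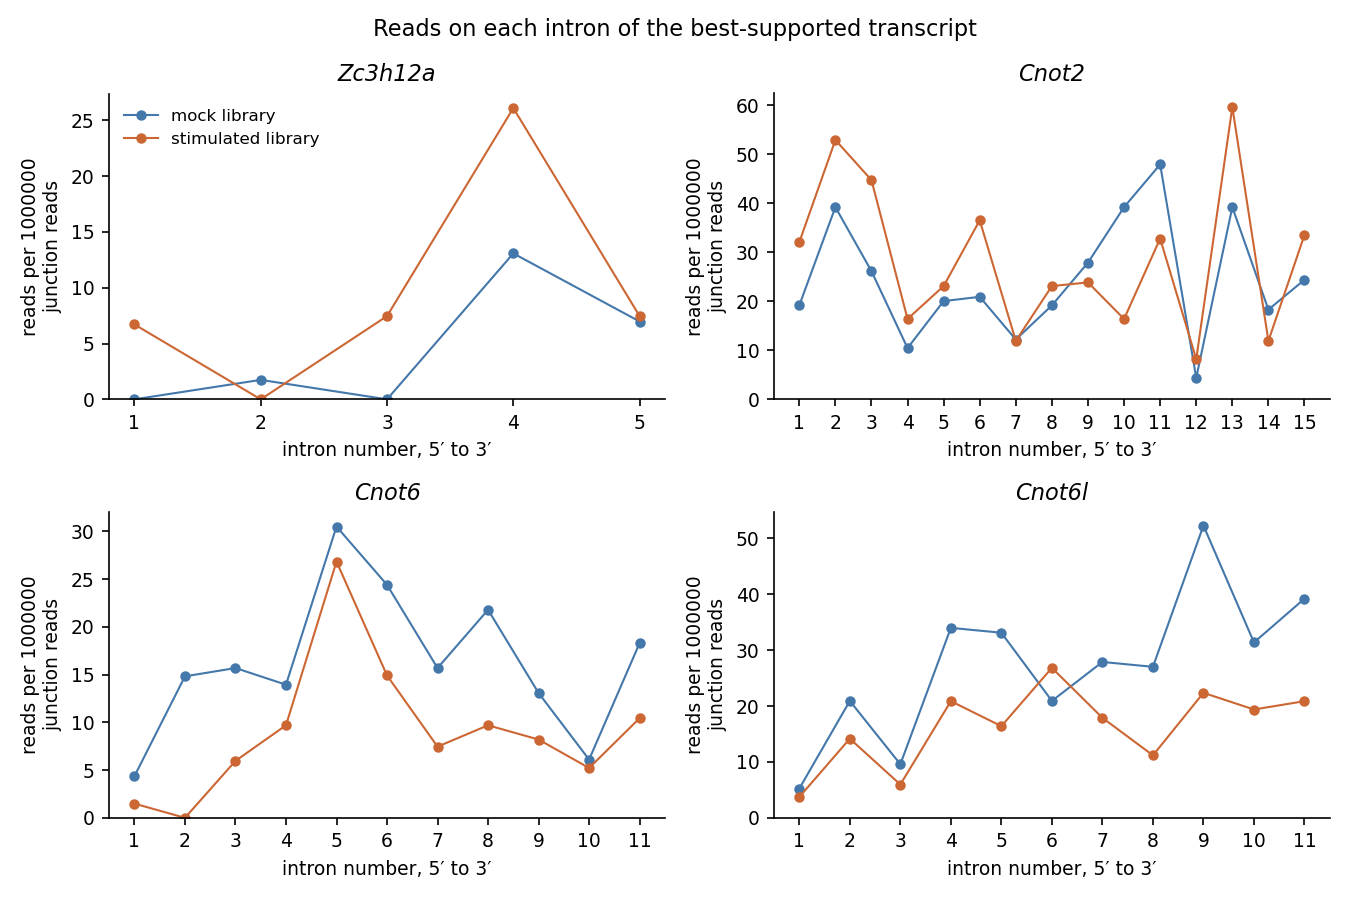
Reads on each intron of the best-supported annotated transcript (x axis, numbered 5′ to 3′) per 1000000 junction reads of the library (y axis), for 4 genes and 1 library per group. Zc3h12a shows introns with reads in 1 library only, Cnot2 has more stimulated reads over its first introns, and the mock library lies above the stimulated library at all 11 introns of Cnot6 and at 10 of 11 of Cnot6l.

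One Cnot6 junction had reads in the mock library only. Intron 2, of 13189 bp, went from 17 to 0 reads, with an upper limit of 0.207 for the ratio. Without it the ratio of Cnot6 was 0.581 (0.466 to 0.723). The second intron of Cnot6l, of 2765 bp, had 24 and 19 reads. The exon ends that these reads join are shown because the paralogs are alike there: 27 of the 40 bases are identical. Capitals mark the downstream exon.
Cnot6 intron 2: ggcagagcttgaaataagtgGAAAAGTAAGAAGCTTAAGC
Cnot6l intron 2: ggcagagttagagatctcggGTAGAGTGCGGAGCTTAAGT
Over their coding sequences the paralogs were identical at 74.3% of 1639 aligned bases, and the longest identical run was 20 bases.

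Levels of different genes were compared only per intron, as reads on the introns of the transcript with the most reads divided by its number of introns, per 1000000 junction reads. In the mock library Cnot6l (27.4, 24.6 to 30.5) and Cnot2 (24.6, 22.3 to 27.0) stood highest and did not differ beyond their intervals. Cnot6 (16.2), Cnot1 (15.6) and Zc3h12d (13.1) followed with overlapping intervals. Cnot3 stood at 8.92, Cnot4 at 7.37 and Rc3h1 at 6.38. Zc3h12a (4.36, 2.82 to 6.43) and Rc3h2 (4.08, 3.28 to 5.02) were the lowest, and their intervals overlapped. In the stimulated library Cnot2 led alone (28.5, 26.2 to 30.9). It was followed by Cnot6l (16.3), Cnot1 (13.5) and Zc3h12d (12.1), each overlapping the next. Zc3h12a (9.54, 7.35 to 12.2) now stood beside Cnot6 (9.08, 7.61 to 10.8), and Rc3h2 was lowest at 3.65. Introns without a named junction count as 0 here, which lowers Cnot3 (6 of 17 such introns) and Cnot1 (6 of 48). It also lowers Rc3h2, where 18 of 19 introns were named.

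**Figure D3:**
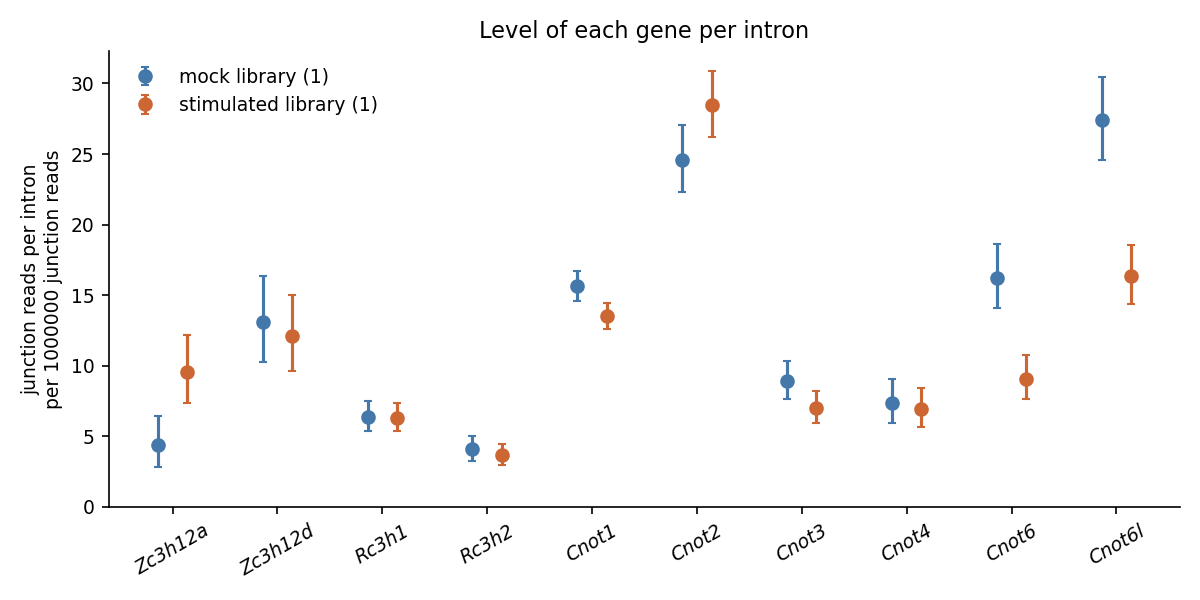
Junction reads per intron per 1000000 junction reads (y axis) for each gene in the mock and the stimulated library, 1 library each, with exact 95% Poisson intervals. Cnot6l and Cnot2 are highest in the mock library, and Cnot2 stands alone at 28.5 in the stimulated library.

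Splice site use inside the 10 genes was compared at 26 sites that had at least 20 reads in each library and more than 1 junction. At 0 of them did a junction's share differ by at least 20 percentage points with intervals that did not overlap, beside 1.59% of 4283 such sites in all genes. The largest shift was at intron 5 of Cnot6. There an alternative donor lengthens the exon by 15 bases, chr11:49498750-49498764, which are in frame and add 5 codons. It took 21 of 56 reads in the mock library, 37.5% (24.9% to 51.5%), and 8 of 44 in the stimulated library, 18.2% (8.19% to 32.7%). The intervals overlap. The other junction had 35 and 36 reads, a ratio of 0.880 (0.537 to 1.44). The added bases are in capitals, between the exon ends in lower case.
Cnot6 with the 15 added bases: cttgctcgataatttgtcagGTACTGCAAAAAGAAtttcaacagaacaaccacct

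In Cnot1 a donor that adds 21 bases, chr8:98256971-98256991, took 17 of 49 mock reads (34.7%, 21.7% to 49.6%) and 12 of 23 stimulated reads (52.2%, 30.6% to 73.2%). The annotation holds this form in a transcript marked for nonsense-mediated decay. A second site in Cnot1 adds 15 bases in frame, 5 codons, and had 2 mock and 8 stimulated reads against 4 and 5 for the shorter exon, too few for the comparison. In Cnot3 an acceptor that adds 3 bases, 1 codon, took 3 of 34 and 4 of 24 reads. Both segments are coding, and their added bases are in capitals.
Cnot1 with 15 added bases: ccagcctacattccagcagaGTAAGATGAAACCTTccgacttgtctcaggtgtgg
Cnot3 with 3 added bases: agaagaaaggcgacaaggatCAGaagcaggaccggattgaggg
In Cnot6l an alternative donor at intron 11 had 6 of 51 mock reads (11.8%) and 0 of 28 stimulated reads, a count that allows a share of up to 12.3% by the exact interval. In Cnot2 a junction of 31649 bp that skips an exon took 5 of 36 mock and 4 of 66 stimulated reads at its acceptor. The depth of these sites, 20 to 84 reads per library, does not allow smaller shifts to be seen.

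**Figure D4:**
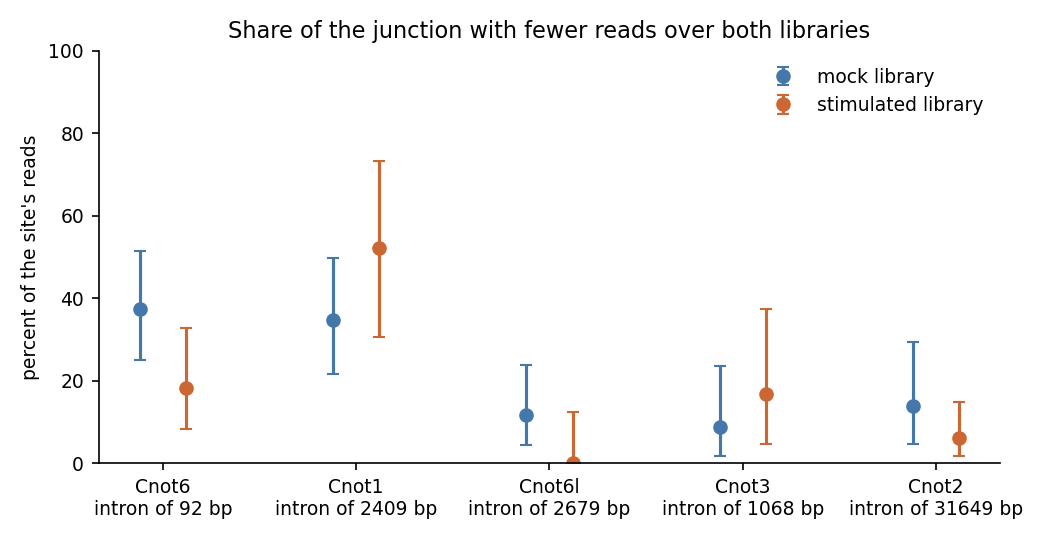
Percent of the reads at a shared splice site taken by the junction with fewer reads over both libraries (y axis), for 1 site in each of 5 genes, with exact 95% intervals and 1 library per group. The Cnot6 junction stands at 37.5% and 18.2%, and at each of the 5 sites the intervals of the libraries overlap.

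The remaining parts of the decay machinery were read from lists chosen with earlier results of these data known. Of 11 genes for other CCR4-NOT subunits and their Tob and Btg adaptors 6 were measured, and 1 was called higher and none lower, beside 17.0% and 25.2% of all genes. Tnks1bp1, a protein that copurifies with the complex, went from 76 to 209 reads (2.35-fold, 1.80 to 3.10). The other nuclease subunits, Cnot7 and Cnot8, had ratios of 1.29 (0.866 to 1.95) and 0.790 (0.434 to 1.43). Cnot9 stood at 1.16, Cnot10 at 1.03 and Cnot11 at 1.59 (1.19 to 2.15). Tob1, Tob2, Btg1, Btg2 and Btg3 had no named junction, which does not show that they were not expressed.

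Of 16 genes listed under other deadenylases and poly(A) binding 12 were measured. Of these 4 were called higher and 2 lower, beside 17.0% and 25.2% of all genes, and the median log2 ratio was −0.18. With scaling by the trimmed mean, 4 were higher and 1 lower, beside 21.7% and 19.6%. Noct, which encodes nocturnin, went from 2 to 32 reads (13.7-fold, 3.49 to 118). Pan3, the partner of the PAN2 nuclease, went from 361 to 168 reads and was 2.51-fold lower (2.09 to 3.04), and Pan2 itself stood at 0.598 (0.482 to 0.740). Larp1, which binds the 5′ ends of ribosomal protein messages, was 4.26-fold higher, while the main poly(A)-binding protein gene Pabpc1 stood at 1.07. Pde12 and Pabpn1 were also higher and Paip2 lower. In the list for decapping and 5′ to 3′ decay 20 genes were measured, 2 were called higher and 2 lower, beside the same 17.0% and 25.2%, and the median log2 ratio was 0.09. Lsm4 (2.39-fold) and Lsm2 (2.38-fold), of the LSM ring, were higher. The exonuclease gene Xrn1 went from 249 to 102 reads and was 2.85-fold lower (2.26 to 3.63), and Ddx6, the helicase that links CCR4-NOT to decapping, went from 171 to 89 and was 2.25-fold lower (1.73 to 2.94). Smg1, the most read of this list, stood at 0.867. Of 12 genes listed for proteins that bind AU-rich or related elements 7 were measured. Zfp36, Zfp36l1 and Zfp36l2 had no named junction, so their levels are not known here. Tia1 was 3.91-fold lower (2.56 to 6.14) and none of the 7 was called higher, beside 25.2% and 17.0% of all genes. Hnrnpd had the highest ratio, 1.72 (1.53 to 1.95).

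Genes of the protease complex that cuts Regnase-1 and Roquin, and of the signals leading to it, went both ways. Malt1, the protease, went from 89 to 527 reads (5.06-fold, 4.04 to 6.41). Its partner Bcl10 stood at 1.64 (1.07 to 2.54). Prkcq, the kinase upstream, was 2.08-fold lower (1.81 to 2.39), and Traf6 stood at 1.06. The calls for Prkcq, Ddx6 and Paip2 were lost under the trimmed mean of M values, and those for Xrn1, Ddx6, Paip2, Lsm4 and Tnks1bp1 when the most-read junction was used alone. Of 17 measured genes listed as messages that Regnase-1 or Roquin acts on, 14 were called higher and 0 lower, beside 17.0% and 25.2% of all genes, and the median log2 ratio was 3.28. Tnf went from 7 to 243 reads and Irf4, the most read, from 93 to 2443, and Pim2 had the lowest ratio, 0.605 (0.363 to 0.997). Most of this list was drawn from genes known to respond to T cell activation, and the support for single members as targets varies, so nothing about decay can be read from this count.

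**Figure D5:**
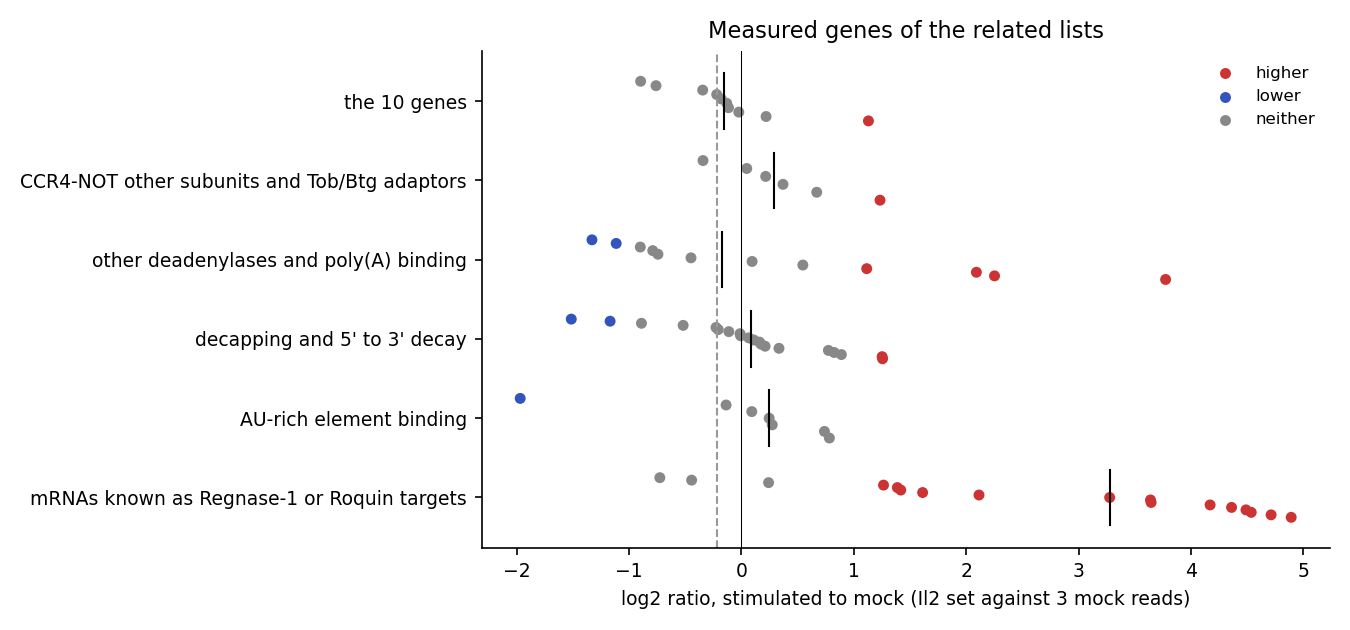
Log2 ratio of the stimulated to the mock library (x axis) for the measured genes of each list but that of the protease complex, 1 point per gene, coloured by call, with a black bar at each list's median and a dashed line at the median of all measured genes. The 10 genes have a median of −0.15, and the listed target messages one of 3.28.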

How the data were processed

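Each library's deposited BED file is a TopHat junction list, per the file headers, whose score column gives counts of spanning reads. The submitters' processing notes name TopHat, Cufflinks and mm9; their versions and settings, and any filter, are not stated in these sources. Junctions dropped by the aligner in 1 library lower a gene's count there. Depth was 1147232 mock and 1341197 stimulated reads.

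Genes were named with GENCODE M21 (GRCm38) by structure, with no coordinate conversion: a junction needed the chromosome, strand and length of an annotated intron and the exact spacing to at least 1 other junction of the same transcript. Of 124183 junctions 76.0% were named, and 1371 matching several genes were dropped. Members shared the shift between builds with neighbouring genes within 7 bp. Genes with fewer than 2 introns cannot be named. Positions are mm9, from 1; sequences come from GENCODE M21 transcripts. Reading frames and UTRs are as annotated there.

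Ratios used library totals, with a floor of 3 reads where a library had 0. Ratios and intervals were computed for each named gene on its own. The method was also run on simulated counts that held counting error only, for junctions already named. That run cannot show that the naming or the intervals hold in these libraries. Members and lists were chosen with earlier results of these data known. The text names all members, all measured genes of the CCR4-NOT and protease lists (except 1 that is not reported here), and the highest, lowest and most-read gene of each other list; Pan2, Larp1, Pde12, Pabpn1, Paip2, Lsm2, Ddx6, Zc3h12c and single junctions were named after values were seen. Some listed genes without a named junction were named as well. Rqcd1 and Ccrn4l, older symbols of Cnot9 and Noct, were not counted again. The alternatives were 3 other scalings, 4 other ways to sum junctions, a match with 2 partners, widened intervals, and other minimums and folds. Python 3.11.15, SciPy 1.17.1, pandas 2.3.3 and Biopython 1.88 were used.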

Additional observations from a re-analysis of the deposited data

How the results depend on the processing

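No paired analysis was possible because each group has 1 library. No direction reversed for Zc3h12a under any alternative, or for the 29 called genes of the related lists under the 3 other scalings and the most-read junction alone; of the 29, 3 lost the call by the trimmed mean, 3 by the median of ratios and 6 from the most-read junction. Zc3h12a had a log2 ratio of 0.997 from its most-read junction and 0.74 from junctions seen in both libraries, both below the call, and members called higher were then 0, as at a fold of 4. Members called lower were 1 from the most-read junction (Cnot6l, −1.23), 1 without it (Cnot6, −1.07) and 2 at a fold of 1.5. For these junction and fold settings no share over all measured genes was computed, so the counts do not set the members apart. Beyond their intervals moved Cnot1 (0.027 by the trimmed mean, 0.0065 by the median of ratios, 0.74 from intron 17 as the most-read junction, where the equally read intron 4 gives −0.27), Cnot2 (0.47, 0.45 and 0.60), Cnot6l (−0.51 by the trimmed mean), and from the most-read junction Cnot3 (−0.86), Cnot4 (0.68) and Cnot6 (−0.18). The log2 difference between paralogs from that junction was 1.08 for Zc3h12a minus Zc3h12d, with an interval that then included no difference, and 1.04 for Cnot6 minus Cnot6l, with one that then excluded it. The cause was not tested. By either the trimmed mean or the median of ratios, decapping genes were higher in 5 and lower in 1, and genes listed under other deadenylases lower in 1. AU-rich element binders were then higher in 1 and protease complex genes lower in 1. Of all measured genes 21.7% were higher and 19.6% lower by the trimmed mean, and 21.4% and 20.1% by the median of ratios. Higher calls made up 52.5% and 51.6% of all calls under these scalings, against 40.3%. From the most-read junction, other CCR4-NOT genes were higher in 0, decapping genes higher in 1 and lower in 0, and AU-rich element binders higher in 2. No share over all genes was computed at that setting. Sums with the genes' unnamed junctions, and Cnot6 without intron 2, were added after seeing the data and changed no call. Depth limits single junctions: 15 and 35 reads on Zc3h12a intron 4 gave a ratio interval of 1.06 to 3.93.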
